A study of Mus musculus with 4 samples.

Results

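The genes described here are Klf2, Klf4, Nos3, Piezo1, Piezo2 and Thbd, 6 genes tied to the response of blood vessels to flow. They were chosen by symbol and make up 6 of the 32285 genes in the deposited count matrices. Their levels are given across endothelial subtypes, haematopoietic progenitors and macrophages of the mouse aorta-gonad-mesonephros region (AGM), the embryonic tissue in which haematopoietic stem cells first arise. The cells came from C57BL/6J embryos at embryonic day 11.5. All of them were sorted as positive for CD31, the adhesion protein encoded by Pecam1. Staining with TMRM, which accumulates in mitochondria with a high membrane potential, then gave a low gate (MMPlow) and a high gate (MMPhigh). Each gate is represented by 2 single-cell RNA libraries, numbered 1 and 2. The study asked which transcriptional differences go with mitochondrial activity. No label says whether the libraries of a gate came from separate embryos or sorts, so p-values refer to the spread between these libraries, which may be technical. The statistical fits also share variance estimates across genes, so a very small p-value does not come from that spread alone.

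Blood flowing over endothelium exerts shear stress. PIEZO1 and PIEZO2 are membrane channels that open under mechanical force and admit cations, including calcium. Shear also activates a kinase cascade through MEK5 and ERK5 to transcription factors of the MEF2 family, which induce the zinc finger factors KLF2 and KLF4. KLF2 and KLF4 in turn raise the endothelial nitric oxide synthase Nos3, whose product relaxes vessels, and thrombomodulin (Thbd), the surface receptor that turns thrombin into an activator of the anticoagulant protein C. In the embryo, flow, Klf2 and nitric oxide have been linked to the emergence of blood stem cells from the aortic wall. PIEZO1 is also known for its part in red cell volume control, and PIEZO2 for touch sensing by sensory neurons.

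The promoters of Klf2 and Klf4 are shown because both genes lie downstream of the same MEF2 step. Sequences were taken from RefSeq on build GRCm38.p6, and 3 of the 6 genes had an entry (Klf2, Klf4 and Piezo1). Each window is 200 bases long and ends 30 bases before the RefSeq start, and capitals mark matches to the MEF2 pattern (CTA and TAG with any 4 bases between them) or to the KLF-type pattern CACCC on either strand. The Klf2 window is chr8:72318832-72319031 on the plus strand, and the Klf4 window is chr4:55532506-55532705 on the minus strand.
Klf2: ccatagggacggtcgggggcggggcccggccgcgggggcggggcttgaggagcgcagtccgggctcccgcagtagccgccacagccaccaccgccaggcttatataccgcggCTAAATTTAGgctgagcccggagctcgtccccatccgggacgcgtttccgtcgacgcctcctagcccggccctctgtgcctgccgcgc
Klf4: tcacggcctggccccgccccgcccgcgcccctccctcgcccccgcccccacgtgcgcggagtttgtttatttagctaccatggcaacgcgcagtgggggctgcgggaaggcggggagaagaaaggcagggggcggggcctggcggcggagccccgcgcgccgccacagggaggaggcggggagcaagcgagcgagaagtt
The Klf2 window held 1 match to the MEF2 pattern, CTAAATTTAG, starting 118 bases before the start. Windows of the same length held this pattern in 819 of 32851 cases (2.49%). The Klf4 and Piezo1 windows held none. The CACCC pattern, present in 45.1% of all windows, was matched 1 time in the Piezo1 window and not in the Klf2 or Klf4 windows. The pattern GGGCGGGG was matched 4 times in the Klf4 window, 2 times in the Klf2 window and 1 time in the Piezo1 window, against 12.6% of all windows with any match. A match is a description of letters in these windows only.

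In GENCODE vM21 (GRCm38), Klf2 spans chr8:72319033-72321656 and Klf4 spans chr4:55527143-55532466. Nos3 lies at chr5:24364810-24384474, Thbd at chr2:148404466-148408188, Piezo1 at chr8:122481698-122551329 and Piezo2 at chr18:63010213-63387183. The annotated genes Gm15587 and Atg9b overlap Nos3 on the opposite strand, Ctu2 and Gm20388 overlap Piezo1 on the opposite strand, and Gm26497 overlaps Piezo1 on its own strand. AC124391.1 overlaps Piezo2 on the opposite strand and AC132378.1 on its own strand. Whether counting used strand is not given in the sources used here, so reads of these pairs may not be told apart. The genes differ in length from 2624 bases (Klf2) to 376971 bases (Piezo2), and levels are therefore compared between cells for 1 gene, not between genes.

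After filtering, 41960 cells remained, of which MMPlow 1 gave 15865, MMPlow 2 18600, MMPhigh 1 4183 and MMPhigh 2 3312. The median depth was 3089, 3654, 3787 and 23054 unique molecular identifiers (UMIs) per cell in that order, so MMPhigh 2 stood apart in depth. Pairs of libraries shared between 14 and 369 barcode sequences. Cells were grouped without the 6 genes, and 11 classes were named from marker genes. Endothelial-like cells numbered 7254 and 8307 in the MMPlow libraries but 15 in each MMPhigh library. Haematopoietic progenitor-like cells, led by Flt3, Il7r and Angpt1, numbered 529, 644, 59 and 65, and macrophage-like cells 1564, 1774, 528 and 862. Both gates also held neural, mesenchymal and erythroid-like classes, although all cells were labelled as CD31 positive. Neural-like cells numbered 555, 610, 1311 and 1142 in the same order, mesenchymal-like cells 1397, 1450, 220 and 296, and erythroid-like cells 166, 231, 94 and 234. The 12 endothelial markers summed to 4600, 4811, 4644 and 6007 CPM in the endothelial-like sums of the 4 libraries. CPM here means the UMIs of a gene summed over a class in a library, per 1000000 UMIs of that class and library. In such sums fewer expressing cells and less RNA per cell cannot be told apart.

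Klf2 was high in endothelium. Its level in endothelial-like cells was 57.1 CPM in MMPlow 1, 59.1 in MMPlow 2, 45.2 in MMPhigh 1 and 52.8 in MMPhigh 2. Progenitor-like cells gave 24.5, 18.0, 12.5 and 16.7 CPM in the same order, and macrophage-like cells 23.5, 19.955, 36.95 and 26.8. Every endothelial-like value thus lay above every progenitor-like and macrophage-like value of Klf2. The MMPhigh endothelial-like values rest on 30 Klf2 UMIs over both libraries. Germ cell-like cells, 29 in each MMPlow library, held 55.6 and 83.9 CPM, which did not separate from the endothelial-like level. Macrophage-like and progenitor-like levels also overlapped in MMPlow, and erythroid-like cells had the lowest mean, at 2.84 and 5.85 CPM. With every cell thinned to 2000 UMIs, 9.48% ± 0.329 (SD, n = 2) of MMPlow endothelial-like cells had a Klf2 UMI, against 0.734% ± 0.186 (SD, n = 2) of erythroid-like cells. Erythroid-like cells are not free of endothelial RNA, their 12 endothelial markers standing at a median of 6.66% and 6.07% of the endothelial-like level, so a second class is given beside them. In neural-like cells, where that median was 18.0% and 14.3%, the thinned Klf2 share was 2.15% ± 0.0219 (SD, n = 2). Before thinning the shares of endothelial-like and erythroid-like cells were 17.9% and 4.97%, at median depths of 3234.5 and 3746 UMIs in endothelial-like and 10639 and 13566 UMIs in erythroid-like cells.

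Klf4, the close relative of Klf2, was lower in most non-endothelial classes. Its endothelial-like level was 22.8 and 25.3 CPM in MMPlow, 0 in MMPhigh 1 and 47.2 in MMPhigh 2. The MMPhigh values rest on 0 and 17 UMIs from 15 cells each, and a count of 0 there allows up to 12.3 CPM. Progenitor-like cells held 12.3, 13.3, 15.04 and 10.1 CPM, and macrophage-like cells 11.0, 6.95, 4.34 and 4.69. In MMPlow the Klf4 order was endothelial-like, progenitor-like, macrophage-like with no overlap between neighbours, apart from germ cell-like cells at 46.3 and 7.63 CPM. Those germ cell-like values rest on 5 UMIs and 1 UMI from 29 cells each, and in MMPhigh the class held 4.02 and 1.74 CPM. The progenitor-like and macrophage-like counting intervals overlapped in MMPlow 1 (7.93 to 18.1 and 8.47 to 14.2 CPM). In MMPlow 2 they did not (9.55 to 17.9 and 5.22 to 9.07 CPM).

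Nos3 and Thbd, both targets of the KLF factors, had their highest mean MMPlow level in endothelial-like cells. Nos3 stood at 68.2, 70.4, 61.6 and 75.0 CPM there, the MMPhigh values resting on 42 UMIs over both libraries. In progenitor-like cells Nos3 was 18.6 and 12.9 CPM in MMPlow and 0 in both MMPhigh libraries. In macrophage-like cells it was 11.8 and 7.98 CPM in MMPlow, and 0.132 and 0.319 in MMPhigh. The non-endothelial MMPlow levels of Nos3 lay between 0 and 19.5 CPM and mostly did not separate from each other. After thinning, 13.1% ± 0.787 (SD, n = 2) of MMPlow endothelial-like cells had a Nos3 UMI, against 0.518% ± 0.120 (SD, n = 2) of erythroid-like and 1.835% ± 0.972 (SD, n = 2) of neural-like cells. The unthinned shares were 24.1%, 3.93% and 4.74%. Thbd was sparse throughout, at 11.9, 13.4, 0 and 47.2 CPM in endothelial-like cells. In MMPhigh 2, 1 cell held 14 of the 17 Thbd UMIs. Progenitor-like cells gave 5.39, 5.37, 0 and 2.54 CPM of Thbd, and macrophage-like cells 3.38, 5.15, 1.84 and 2.69. In MMPlow the endothelial-like values of Thbd lay above those of every other class. Germ cell-like cells held 9.26 and 7.63 CPM there, but each value is 1 UMI from 29 cells. Their counting intervals, 0.234 to 51.6 and 0.193 to 42.5 CPM, include the endothelial-like level, so their place in the order is not settled. In MMPhigh, germ cell-like cells held 1.34 and 0.868 CPM of Thbd, from 1 UMI in 82 cells and 2 UMIs in 46.

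Piezo1 was detected across many blood classes. It stood at 130.9 and 131.0 CPM in MMPlow endothelial-like cells and at 115.1 and 94.4 in the MMPhigh ones. Progenitor-like cells held 105.9, 84.3, 32.6 and 38.0 CPM of Piezo1, and macrophage-like cells 85.5, 69.0, 51.9 and 50.6. Erythroid-like cells held 72.2 and 61.4 CPM of Piezo1 in MMPlow and 70.9 and 68.2 in MMPhigh, while erythroid markers in that class summed to 25386 and 15819 CPM in MMPlow and 8652 and 1666 in MMPhigh. Piezo2 reached 583 and 643 CPM in MMPlow endothelial-like cells and 703 and 572 in MMPhigh. In progenitor-like cells Piezo2 was 140.2, 114.3, 1.25 and 0.507 CPM, and in macrophage-like cells 71.8, 43.0, 0.132 and 0.455. Mesenchymal-like cells came second in MMPlow at 186.8 and 185.3 CPM and still held 102 ± 8.19 (SD, n = 2) in MMPhigh. After thinning, 61.8% ± 1.15 (SD, n = 2) of MMPlow endothelial-like cells had a Piezo2 UMI, against 3.76% ± 0.199 (SD, n = 2) of erythroid-like and 9.94% ± 2.00 (SD, n = 2) of neural-like cells, with unthinned shares of 76.7%, 12.3% and 18.5%.

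**Figure D1:**
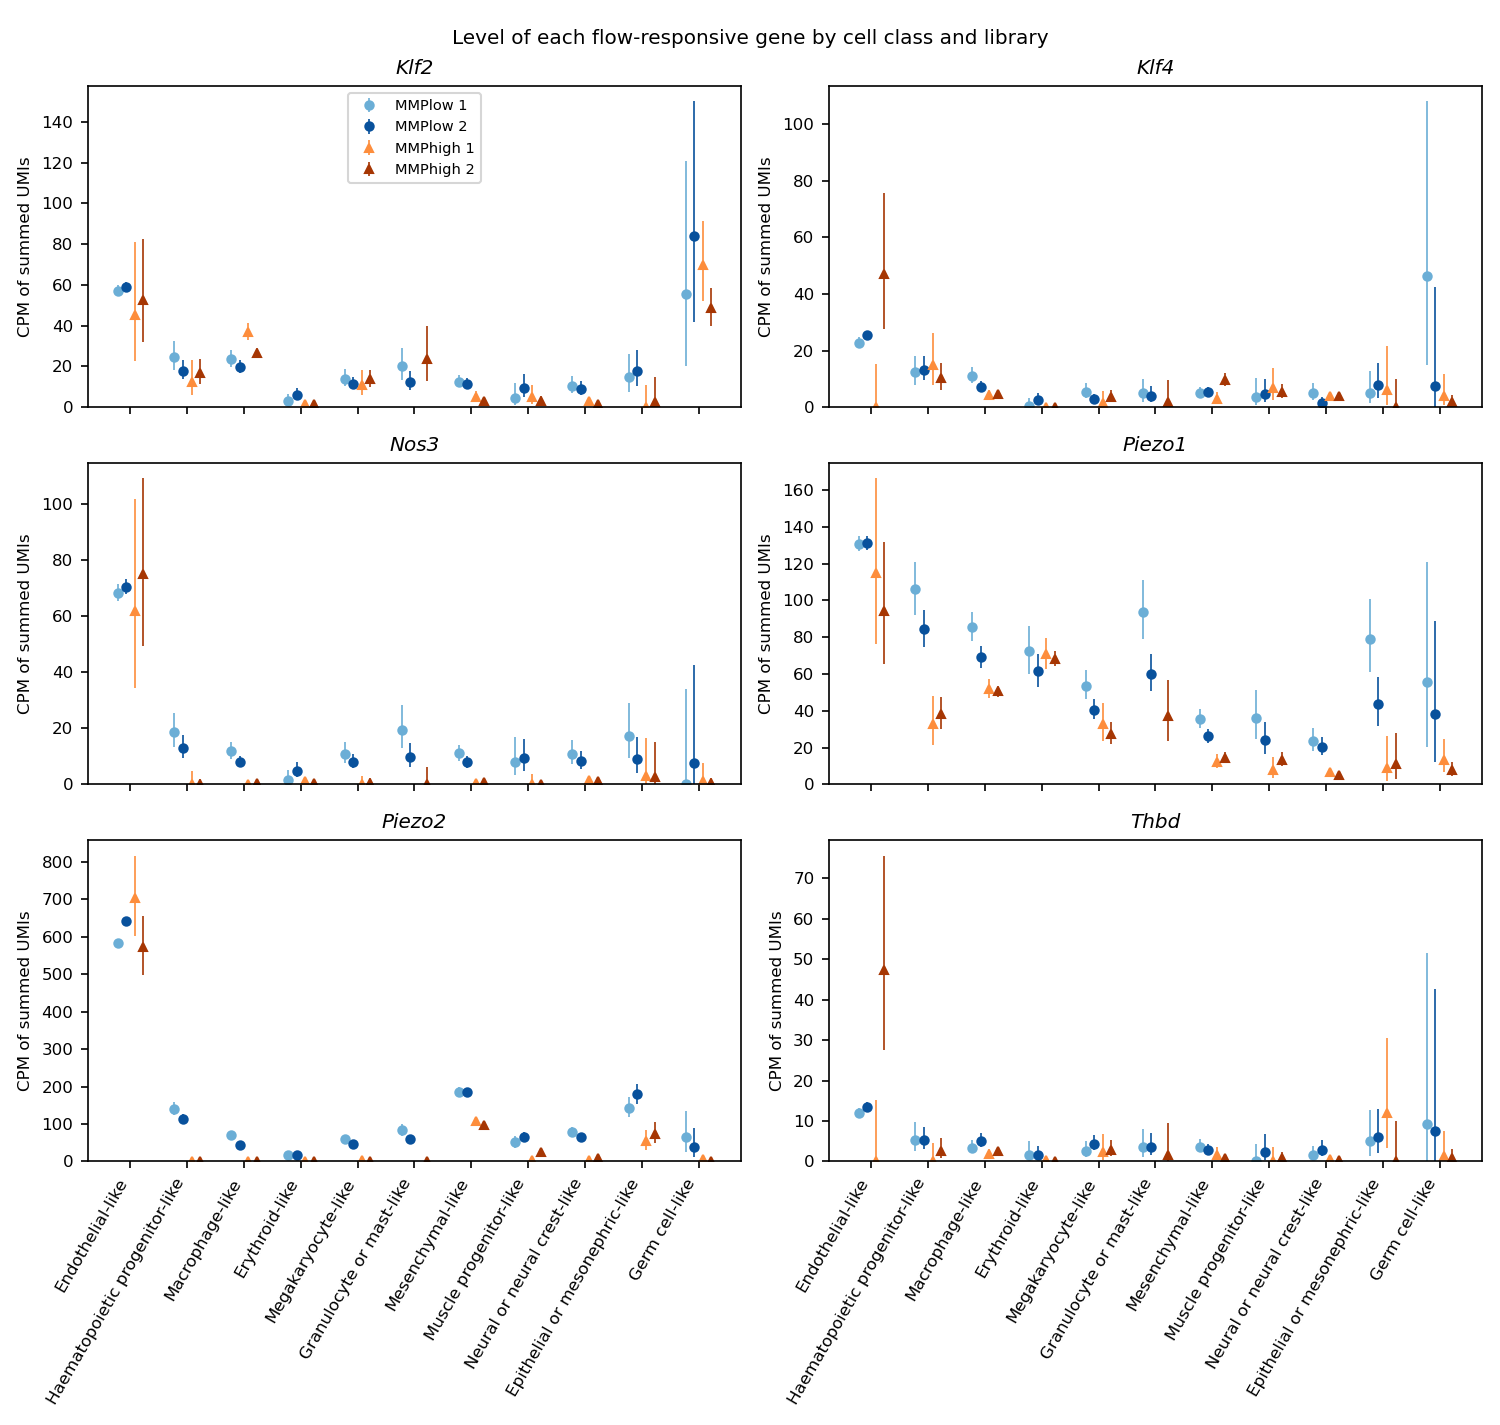
CPM of summed UMIs for each gene (y axes, 1 panel per gene) in each of 11 named cell classes (x axis), 1 point per library with at least 10 cells, circles for MMPlow and triangles for MMPhigh; bars are 95% Poisson intervals of the count. Nos3 and Piezo2 are highest in endothelial-like cells, whereas Piezo1 is spread over blood classes and Klf2 is also high in germ cell-like cells.

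Within MMPlow, endothelial-like sums were compared with progenitor-like and macrophage-like sums by edgeR's quasi-likelihood test with the library as a block. The sums of all these classes were fitted together. The classes were defined on the same cells, so these p-values describe the 2 libraries. All 6 genes were higher in endothelial-like than in progenitor-like cells at an adjusted p under 0.05, where 27.4% of genes tested were higher, 24.7% lower and 52.1% were called in either direction. Without TMM the share of called genes that were higher went from 52.6% to 41.7%. The log2 fold was 2.41 ± 0.199 (SE) for Piezo2 (adjusted p = 0.00018), 2.30 ± 0.158 for Nos3 (6.83e-11) and 1.61 ± 0.141 for Klf2 (2.03e-09). For Thbd it was 1.37, for Klf4 1.03, and for Piezo1, the smallest, 0.60 ± 0.0968 (adjusted p = 1.77e-05). Against macrophage-like cells, all 6 genes were again higher in endothelial-like cells (30.7% of genes tested higher, 30.3% lower, 60.9% called in either direction). Here the log2 fold was 3.45 ± 0.201 for Piezo2, 2.84 ± 0.134 for Nos3, 1.53 for Thbd, 1.46 for Klf4, 1.42 ± 0.109 for Klf2 and 0.77 ± 0.0872 for Piezo1. Progenitor-like and macrophage-like cells differed in 1 of the 6 genes, Piezo2, which was higher in progenitor-like cells by a log2 fold of 1.05 ± 0.222 (adjusted p = 0.0189), where 29.1% of genes were called (13.4% higher and 15.7% lower). The other log2 folds were 0.54 for Nos3, 0.43 for Klf4, 0.17 for Piezo1, 0.16 for Thbd and -0.19 for Klf2. With all 4 libraries the Piezo2 call was lost (log2 fold 1.37, adjusted p = 0.535). Without TMM, Nos3 (0.67), Piezo1 (0.30) and Piezo2 (1.17) were called higher, and the share of called genes that were higher went from 45.9% to 63%. At resolution 2, Piezo1 (0.88) and Piezo2 (0.92) were called higher and Klf2 (-0.43) lower, where 55.7% of genes were called. In the same comparison 7 of 12 endothelial markers were higher in progenitor-like cells (median log2 fold 0.42), and their part in the Piezo2 difference was not tested. The 2 comparisons with endothelial-like cells share the endothelial-like sums.

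Endothelial marker RNA was present in every MMPlow class, and its level is given beside the genes here. In MMPlow macrophage-like cells the 12 endothelial markers stood at a median of 20.6% and 15.1% of their endothelial-like level in libraries 1 and 2, with ranges of 14.3% to 27.1% and 7.70% to 20.9%. Nos3 stood at 17.2% and 11.3% there, inside those ranges. Piezo2 stood at 12.3% and 6.69%, below all 12 markers. Klf2, at 41.2% and 33.7%, Klf4, at 48.4% and 27.4%, Piezo1, at 65.3% and 52.7%, and Thbd, at 28.5% and 38.5%, lay above all 12. In MMPlow progenitor-like cells the marker medians were 26.2% and 21.9%. There Nos3 (27.3% and 18.4%) and Piezo2 (24.1% and 17.8%) lay within the marker range, as did Klf2 (43.0% and 30.4%) and Thbd (45.4% and 40.1%) nearer its upper end, while Klf4 (53.7% and 52.3%) and Piezo1 (80.9% and 64.3%) lay above all 12 markers. In MMPhigh the marker medians were 0.344% and 1.51% of the mean MMPlow endothelial-like level in progenitor-like cells and 0.3665% and 0.2999% in macrophage-like cells. The highest marker there was Egfl7 in progenitor-like cells, at 23.9% and 29.2%, and Pecam1 in macrophage-like cells, at 10.4% and 9.96%. In MMPhigh progenitor-like cells Klf2 (21.6% and 28.8%) and Piezo1 (24.9% and 29.1%) thus stood close to Egfl7, and Klf4 (62.5% and 42.1%) above it. The next marker there was Pecam1, at 8.67% and 8.88%. In MMPhigh macrophage-like cells Klf2 (63.6% and 46.1%), Piezo1 (39.7% and 38.6%), Klf4 (18.0% and 19.5%) and Thbd (14.6% and 21.3%) lay above all 12 markers. Nos3 (0.190% and 0.460%) and Piezo2 (0.0215% and 0.0743%) lay within the marker range there. The part of this marker RNA in the levels of the 6 genes was not tested.

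**Figure D2:**
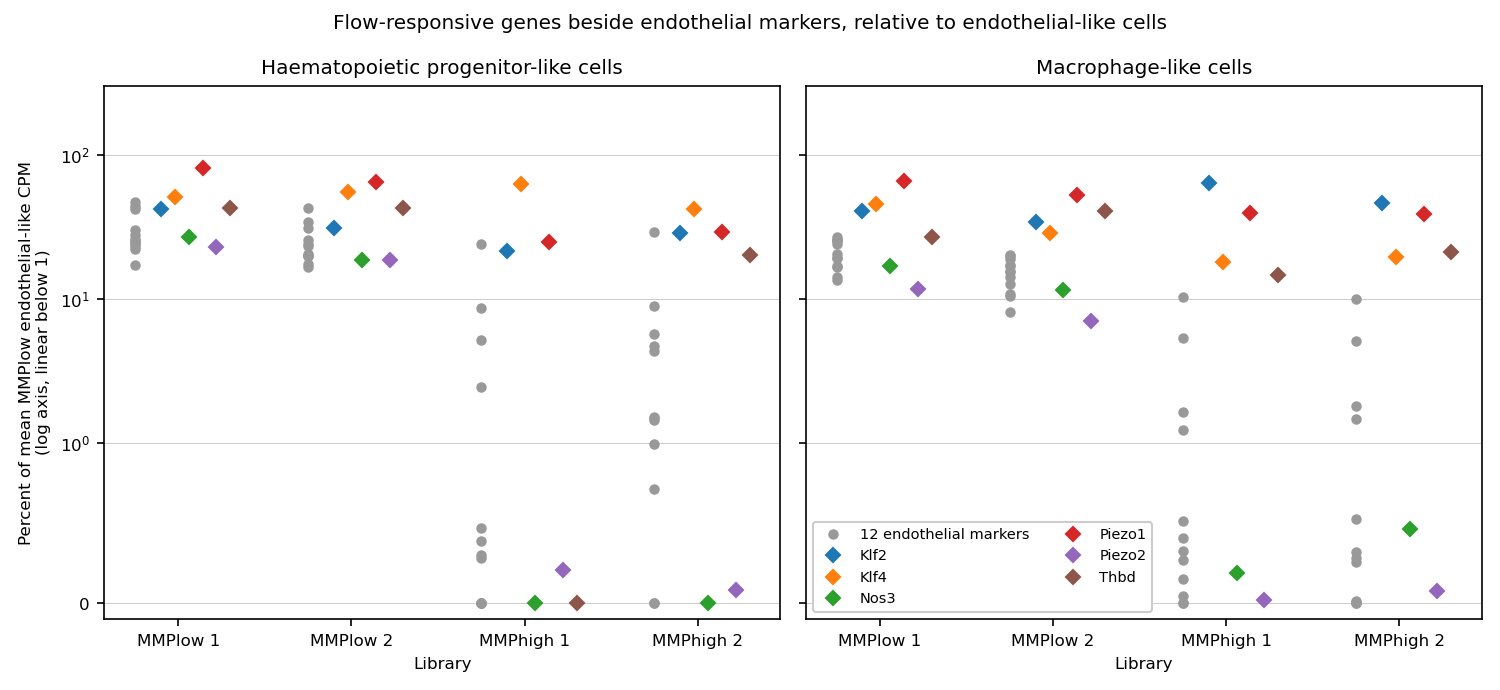
Level of each gene in progenitor-like (left) and macrophage-like cells (right) of the 4 libraries (x axes), as percent of its mean MMPlow endothelial-like CPM (y axis, log scale, linear below 1), with the 12 endothelial markers in grey. In MMPlow macrophage-like cells Nos3 lies among the markers and Piezo2 at or below their lower end, and in MMPhigh both lie under 1%, while Klf2, Klf4 and Piezo1 stay above 10% in every library.

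Endothelial-like cells of all 4 libraries were divided into 16 subclusters, again without the 6 genes, and 7 of them were named and pooled into 4 subtypes. In the MMPlow libraries arterial-like cells numbered 781 and 1048, venous-like cells 1217 and 1415, cells with markers of Wnt signalling 1241 and 1419, and lymphatic-like cells, led by Prox1 and Reln, 172 and 274. The other 9 subclusters stay unnamed and are called by number and leading genes. Each MMPhigh library held 15 endothelial-like cells in all, too few for subtypes, so subtype levels are given for MMPlow. All 6 genes differed among subclusters by edgeR's F-test at an adjusted p under 0.05, as did 74.9% of genes tested. F ran from 49.3 for Piezo2 (adjusted p = 5.52e-11) and 22.9 for Klf2 (2.34e-29) down to 3.69 for Thbd (3.83e-05). These p-values did not follow the order of F, as the degrees of freedom differed between genes, and they are not ranked. Progenitor-like and macrophage-like sums were part of the same fit.

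Lymphatic-like cells had the lowest mean level of Klf2, Klf4, Nos3 and Thbd. Klf2 was 20.8 and 28.5 CPM there in libraries 1 and 2, Klf4 8.93 and 10.3, Nos3 19.4 and 34.9 and Thbd 2.98 and 7.14. For Nos3 and Thbd these values lay below both values of the other pooled subtypes and the unnamed subclusters. However, subcluster 9, 1 of the 3 pooled as Wnt-type, held 6.58 and 10.9 CPM of Thbd. The lymphatic-like Thbd values rest on 2 and 9 UMIs, with counting intervals of 0.361 to 10.8 and 3.26 to 13.5 CPM. Those of Wnt-type cells, 5.69 to 10.8 and 7.27 to 12.2 CPM, overlap them. The place of lymphatic-like cells in the Thbd order is thus not settled. For Nos3 the intervals of lymphatic-like cells and subcluster 11 overlapped in MMPlow 2, at 25.3 to 46.8 and 24.5 to 55.0 CPM. For Klf2 and Klf4 the lymphatic-like values overlapped the neighbours in the order, among them subcluster 12. Piezo2 was high in the same lymphatic-like cells, at 839.5 and 1038 CPM, above arterial-like (461.9 and 565), venous-like (524 and 589) and Wnt-type cells (532 and 592). Piezo1 in lymphatic-like cells, 141.4 and 141.9 CPM, was in the middle of its range.

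Among the pooled subtypes and the unnamed subclusters, Klf2 was highest in subcluster 5, whose leading genes are those of dividing cells (Prc1, Aurkb and histone genes), at 91.1 and 74.6 CPM. Subcluster 15, led by Runx1, F13a1 and Arhgap15, gave 95.3 and 66.9 CPM from 48 and 36 cells. These did not separate from each other, and the second value of subcluster 15 lay inside the venous-like range of 63.4 to 71.5 CPM, while both values of subcluster 5 lay above it. Within the Wnt-type subtype, subcluster 9, led by Dgki and Spock2, held 85.5 and 109.8 CPM of Klf2, which did not separate from subclusters 5 and 15. Markers of macrophages summed to 800.7 and 489.5 CPM in subcluster 15, against 255 and 228 in all endothelial-like cells. Erythroid markers there summed to 57.2 CPM in MMPlow 1 and 383.9 in MMPlow 2, against 115.5 and 91.0 in all endothelial-like cells, and the part of either in its levels was not tested. Of the pooled subtypes, Klf4 was highest in venous-like cells, 34.2 and 42.1 CPM, above subcluster 15 at 32.7 and 31.7, although subcluster 14, led by Gpc6 and Fendrr, held 20.3 and 39.8 CPM. Before pooling, subcluster 9 was higher than venous-like cells in Klf4, with 49.3 and 44.7 CPM from 175 and 212 cells.

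Subcluster 12, led by Gata4, Oit3, Stab2 and Lyve1, combined a low Piezo2 with a high Nos3. Its Piezo2 level of 161.5 and 153.4 CPM lay below the pooled subtypes and the other unnamed subclusters, the next being subcluster 7, a second group with genes of cell division (Cdc20, Ccnb2), at 350.1 and 348. It did not separate from subcluster 2, 1 of the 2 pooled as arterial-like, at 162.1 and 147.0 CPM. Its Nos3 level of 83.9 and 82.7 CPM came after that of arterial-like cells (90.4 and 90.9) among the pooled subtypes and unnamed subclusters, and overlapped that of subcluster 6 (65.8 and 88.2). Before pooling, subcluster 9 held 83.9 and 107.4 CPM of Nos3 and subcluster 2 held 147.0 and 141.3. Klf2 in subcluster 12 was 28.0 and 39.0 CPM and Klf4 9.54 and 13.1, both near the lower end. Markers of macrophages summed to 560 and 568 CPM in subcluster 12, above the level of all endothelial-like cells as in subcluster 15, and their part in its levels was not tested. Subcluster 1, led by Ogn, Aspn and Angpt2, had the highest Piezo1, at 178 and 185 CPM, and the highest mean Piezo2, at 1009 and 1168, which overlapped the lymphatic-like values.

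**Figure D3:**
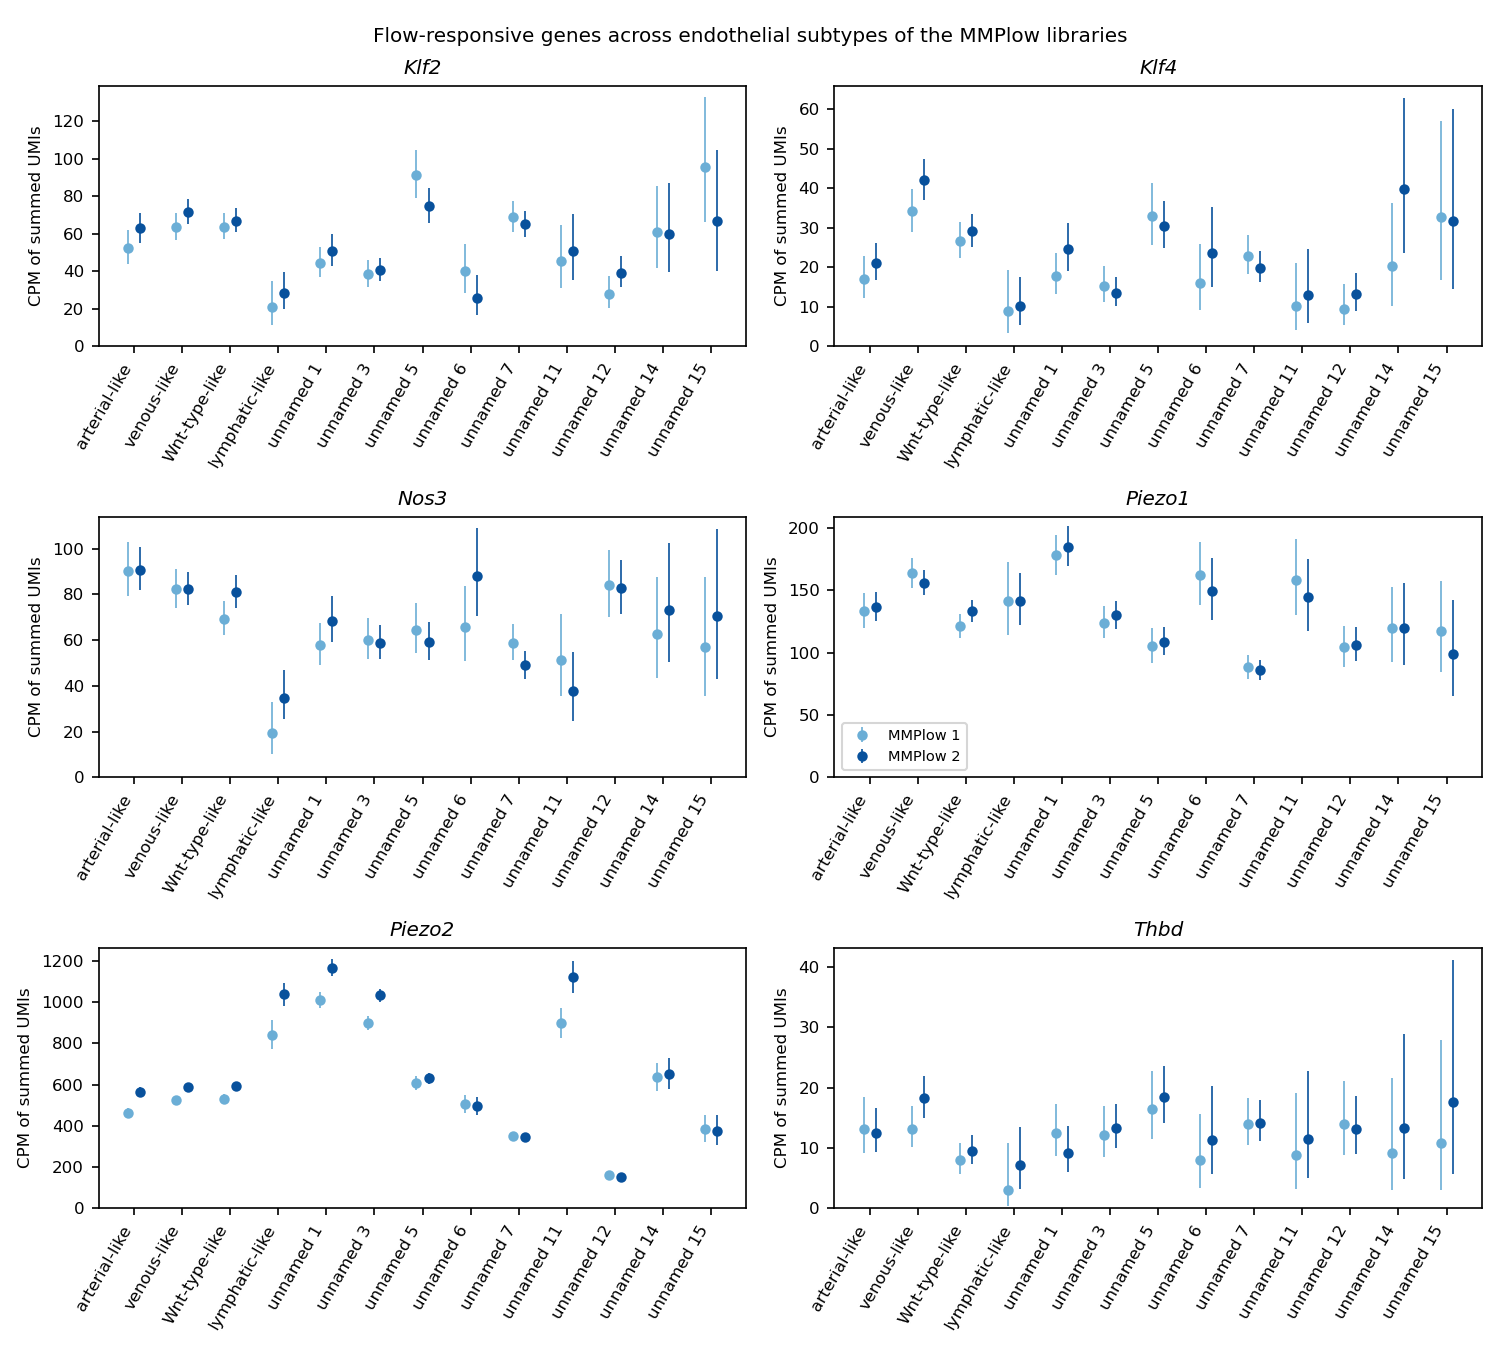
CPM of summed UMIs for each gene (y axes) in named endothelial subtypes and numbered unnamed subclusters (x axes) of MMPlow 1 (light) and MMPlow 2 (dark); bars are 95% Poisson intervals of the count. Lymphatic-like cells are low for Nos3 and high for Piezo2, and subcluster 12 has the lowest Piezo2 of the groups plotted, at 161.5 and 153.4 CPM.

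Arterial-like cells were then compared with venous-like cells, since arteries and veins differ in the flow they carry. The fit held the sums of all pooled subtypes and unnamed subclusters, with progenitor-like and macrophage-like sums. Its p-values thus rest on variation over all these groups, not on arterial-like and venous-like sums alone. Klf4 was lower in arterial-like cells, at 17.01 and 21.1 CPM against 34.2 and 42.1, with no overlap (log2 fold -0.97 ± 0.151, SE; edgeR adjusted p = 5.6e-08). The arterial-like class pools subcluster 4, led by Abtb2, Sorbs2 and Unc5b (566 and 790 cells), and subcluster 2, led by Pde3a, Dkk2 and Sox6 (215 and 258 cells). Klf4 was 11.9 and 16.8 CPM in subcluster 4, below both venous-like values, but 31.8 and 36.2 in subcluster 2, which overlapped them. Piezo1 was lower as well, at 133.3 and 137.1 CPM against 163.8 and 156.1 (log2 fold -0.21 ± 0.0784; adjusted p = 0.0375), and both subclusters lay below the venous-like values, at 131.3 and 138.1 CPM in subcluster 4 and 139.4 and 133.4 in subcluster 2. The Piezo1 call was lost with DESeq2 (adjusted p = 0.175), with no replicate block (0.17) and with all 4 libraries (0.23). No MMPhigh arterial-like or venous-like sum reached 10 cells. The fit with all 4 libraries thus added only MMPhigh progenitor-like and macrophage-like sums and did not repeat the comparison in MMPhigh. Klf4 and Piezo1 were 2 of 6 genes, where 23.1% of genes tested were called and 10.4% were lower. Klf2 stood at 52.2 and 62.8 CPM against 63.4 and 71.5 (log2 fold -0.19 ± 0.108; adjusted p = 0.209). Nos3 stood at 90.4 and 90.9 CPM against 82.2 and 82.3 (log2 fold 0.16 ± 0.0959; adjusted p = 0.235). This pooled Nos3 level joins 71.1 and 76.5 CPM in subcluster 4, below venous-like cells, with 147.0 and 141.3 in subcluster 2, above them. Piezo2 was likewise uneven, at 564 and 684 CPM in subcluster 4 and 162.1 and 147.0 in subcluster 2. Piezo2 and Thbd did not pass the threshold either, with log2 folds of -0.09 ± 0.127 and -0.30 ± 0.209. The comparison depended on how finely the endothelium was divided. At Leiden resolution 2, Klf4 had a log2 fold of 0.59 (adjusted p = 0.179), Piezo1 did not pass, and Klf2 (0.58) and Piezo2 (0.56) were called higher in arterial-like cells. At resolution 0.5, Klf4 (-0.46) and Piezo2 (-1.66) were called lower and Nos3 (0.60) higher, while Piezo1 did not pass (adjusted p = 0.0699).

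Other genes of the pathway, from lists chosen with earlier results of these data known, were compared between arterial-like and venous-like cells as well, where 12.7% of all genes tested were higher and 10.4% lower. Of 20 tested genes induced by laminar flow or by KLF2 and KLF4, 14 were higher and 4 lower in arterial-like cells, with a median log2 fold of 1.35 against -0.01 over all genes. The largest were the connexins Gja5 (log2 fold 4.83) and Gja4 (4.53) and the Notch target Hey1 (4.36), and 7 of the 21 listed genes also serve as class markers, so their direction is not independent of the class names. The prostaglandin transporter Slco2a1 (-2.30) and the protein C receptor Procr (-1.26) were lower. Of 11 tested genes lowered by laminar flow, 4 were higher, among them Esm1 (4.07) and Cxcr4 (3.15), itself an arterial marker, and 2 were lower, Apln (-1.30) and Icam1 (-0.89). Among 8 tested coagulation genes, Vwf was higher (1.26), and 4 were lower, including Tfpi (-0.78) and Entpd1 (-0.78). Of 27 tested flow sensing genes, 11 were higher, led by Kcnj2 (1.99) and Notch1 (1.29), and 1 was lower, the integrin Itgb1 (-0.28). In the nitric oxide pathway 3 of 12 tested genes were higher, Nos2 (3.29), Ddah1 (1.38) and Gucy1b1 (1.01). Of 12 tested members of the KLF family other than Klf2 and Klf4, 4 were higher, among them Klf13 (0.65), Klf12 (0.59) and Klf7 (0.58). Of 12 tested immediate early and dissociation genes, 5 were higher in arterial-like cells, led by Ier3 (1.81), and their part in these differences was not tested.

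The gates were compared next, MMPhigh over MMPlow. Over all cells, Klf2 stood at 35.6 and 34.1 CPM in MMPlow and 12.1 and 9.58 in MMPhigh. Klf4 stood at 14.5 in both MMPlow libraries and at 3.67 and 3.95 in MMPhigh. Nos3 fell from 38.9 and 36.9 to 1.29 and 0.926 CPM, and Piezo2 from 325 and 334 to 21.9 and 17.6. Piezo1 went from 98.4 and 88.8 to 29.1 and 30.5 CPM, and Thbd from 7.33 and 8.07 to 1.16 and 1.24. No gene's gates overlapped, and all 6 were lower at an adjusted p under 0.05, where 26.5% of genes tested were lower and 53.8% were called in either direction. Log2 folds ran from -5.13 ± 0.152 (SE) for Nos3 and -4.03 ± 0.137 for Piezo2 to -1.66 ± 0.125 for Klf2 and -1.61 ± 0.0859 for Piezo1. Thbd had -2.64 ± 0.166 and Klf4 -1.89 ± 0.118. The cell makeup of the gates differed in the same direction. Endothelial-like cells held 45.7% and 44.7% of MMPlow cells and 0.359% and 0.453% of MMPhigh cells. They contributed 81.1% and 82.3% of the Nos3 UMIs and 74.2% and 74.6% of the Klf2 UMIs in MMPlow. In MMPhigh, macrophage-like cells contributed 58.9% and 61.8% of the Klf2 UMIs. Outside the endothelial-like class, an alternative chosen after the data were seen, all 6 genes were lower in MMPhigh too, with log2 folds from -3.95 for Nos3 and -2.50 for Piezo2 to -0.50 for Klf2. In that fit 44.4% of genes tested were called, 22.6% higher and 21.9% lower. The makeup of these other cells also differed between the gates. Neural-like cells were 555 of 8611 and 610 of 10293 in MMPlow, against 1311 of 4168 and 1142 of 3297 in MMPhigh. The part of makeup in these differences was not tested.

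Within endothelial-like cells none of the 6 genes passed the threshold, where 1.76% of 14993 genes tested did (0.72% higher and 1.04% lower). Over alternatives with all 4 libraries that share ran from 1.28% (resolution 0.5) to 2.78% (stricter cell filter). Of the called genes 40.9% were higher, and this ran from 31.4% (replicate block) to 66.7% (DESeq2). None of the 6 had an unadjusted p under 0.05 either, against 2009 of all genes, and DESeq2 called 0 of the 6. The MMPhigh sums hold 15 cells each. Log2 folds were -0.24 ± 0.264 (SE) for Klf2 (edgeR adjusted p = 0.681), -0.01 ± 0.234 for Nos3, -0.36 ± 0.200 for Piezo1 and 0.03 ± 0.170 for Piezo2. Klf4 (0.20 ± 0.653) and Thbd (1.13 ± 0.709) were each at 0 in MMPhigh 1 and at 17 UMIs in MMPhigh 2. Without MMPhigh 1 Thbd was called, with a log2 fold of 1.89 and an adjusted p of 0.00663, on a sum in which 1 cell held 14 of the 17 UMIs.

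In progenitor-like cells 3 of 6 genes fell in MMPhigh, where 36.2% of genes tested were called and 17.7% were lower. The share called was 19% without MMPlow 1, 14.8% with DESeq2 and 23% at resolution 2. Nos3, with 79 UMIs in MMPlow and 0 in MMPhigh, was 14.0-fold lower with 3 counts set over both MMPhigh libraries (edgeR adjusted p = 8.36e-05). The 95% counting interval of its ratio starts at 11.1. Piezo2, with 648 UMIs against 2, was lower by a ratio of 172 (95% counting interval 47.5 to 1425; adjusted p = 2.2e-09). Piezo1 fell by 1.08 ± 0.201 on the log2 scale (adjusted p = 0.000466), from 105.9 and 84.3 CPM to 32.6 and 38.0. Klf2 (-0.15 ± 0.322), Klf4 (0.18 ± 0.371) and Thbd (-1.27 ± 0.747) did not pass. With clusters at Leiden resolution 2, Klf4 was called, at -1.91 (adjusted p = 0.0334). Scaled to library totals without TMM, the share of called genes that were higher went from 51.0% to 22.4%, and Klf4 stood at -0.12. All 11 tested endothelial markers were lower in these MMPhigh cells, their summed CPM being 1403 and 1144 in MMPlow and 218 and 286 in MMPhigh. Markers of macrophages summed to 393 CPM in each MMPlow library and to 997 and 659.5 in MMPhigh. Markers of haematopoietic progenitors went from 3078 and 3170 CPM to 1666 and 1888, against 1356 to 1470 in macrophage-like cells of the 4 libraries. Their part in these differences was not tested.

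In macrophage-like cells 4 of 6 genes were called, where 42.9% of genes tested were (21.3% higher and 21.6% lower). Klf2 was higher in MMPhigh, 36.95 and 26.8 CPM against 23.5 and 19.955, with no overlap (log2 fold 0.79 ± 0.173, SE; edgeR adjusted p = 0.00517). The class's own macrophage markers summed to 4479 and 5255 CPM in MMPlow and 8751 and 9269 in MMPhigh, and their part in these differences was not tested. Nos3 fell by 4.88 ± 0.434 (adjusted p = 2.42e-05) and Piezo2 by 6.96 ± 0.412 (3e-05) on the log2 scale. Piezo1 fell by 0.33 ± 0.108 (adjusted p = 0.0319). Klf4, at 11.0 and 6.95 CPM against 4.34 and 4.69, had a log2 fold of -0.70 ± 0.265 and an adjusted p of 0.0552, and Thbd -0.62 ± 0.350. Without TMM the share of called genes that were higher went from 49.7% to 22.0%, and the median of all genes from 0.00213 to -0.255 on the log2 scale. Piezo1 was no longer called without MMPlow 1 (-0.199, edgeR adjusted p = 0.201), MMPhigh 1 (-0.329, 0.0743) or MMPhigh 2 (-0.29, 0.17), and without MMPlow 2 Klf4 was called (-0.989, 0.0108). With DESeq2 Piezo1 stood at -0.31 (adjusted p = 0.189), and at resolution 2 at -0.21 (edgeR adjusted p = 0.2). Under the stricter cell filter Klf2 stood at 0.43 (adjusted p = 0.274) and Piezo1 at -0.09 (0.781), Klf4 changed sign to 1.68 (0.233), Nos3 was not among the genes tested, and Piezo2 was still called, at -6.28 (1.25e-05). The thinned share of cells with a Klf2 UMI was 4.16% and 4.40% in MMPlow and 7.58% and 4.06% in MMPhigh, so that MMPhigh 2 did not follow the order of the CPM. Unthinned shares were 7.48%, 8.0045%, 27.5% and 31.6%.

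The macrophage-like class was made up of different clusters in the 2 gates. Cluster 13 held 302, 498, 363 and 516 cells of the 4 libraries, cluster 14 1248, 1244, 12 and 7, and cluster 27 14, 32, 153 and 339. Within cluster 13 alone, chosen after the data were seen because every library had at least 300 cells in it, 2 of 6 genes were called, Nos3 and Piezo2, both lower, where 17.6% of genes tested were called (8.07% higher and 9.53% lower). Klf2 there was 20.5 and 18.6 CPM in MMPlow and 35.7 and 23.0 in MMPhigh (log2 fold 0.55, adjusted p = 0.161). Piezo1 was 53.5 and 51.6 against 54.2 and 55.1 CPM (log2 fold 0.08). All 12 endothelial markers were lower in MMPhigh macrophage-like cells, with sums of 923 and 663 CPM in MMPlow and 94.2 and 92.0 in MMPhigh, and Emcn at 0 and 0.0911. Immediate early and dissociation genes, which include stress genes induced during tissue handling, moved the other way. In macrophage-like cells, where 21.3% of all genes tested were higher and 21.6% lower, 13 of 15 were higher in MMPhigh. They were led by Fosb (log2 fold 6.86) and the heat shock gene Hspa1a (5.79), with sums of 262 and 238 CPM in MMPlow and 607 and 549 in MMPhigh. In progenitor-like cells, where 18.5% of all genes tested were higher, 9 of 13 were higher, with sums of 206 and 203 against 394 and 492. Their part in the Klf2 difference was not tested.

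**Figure D4:**
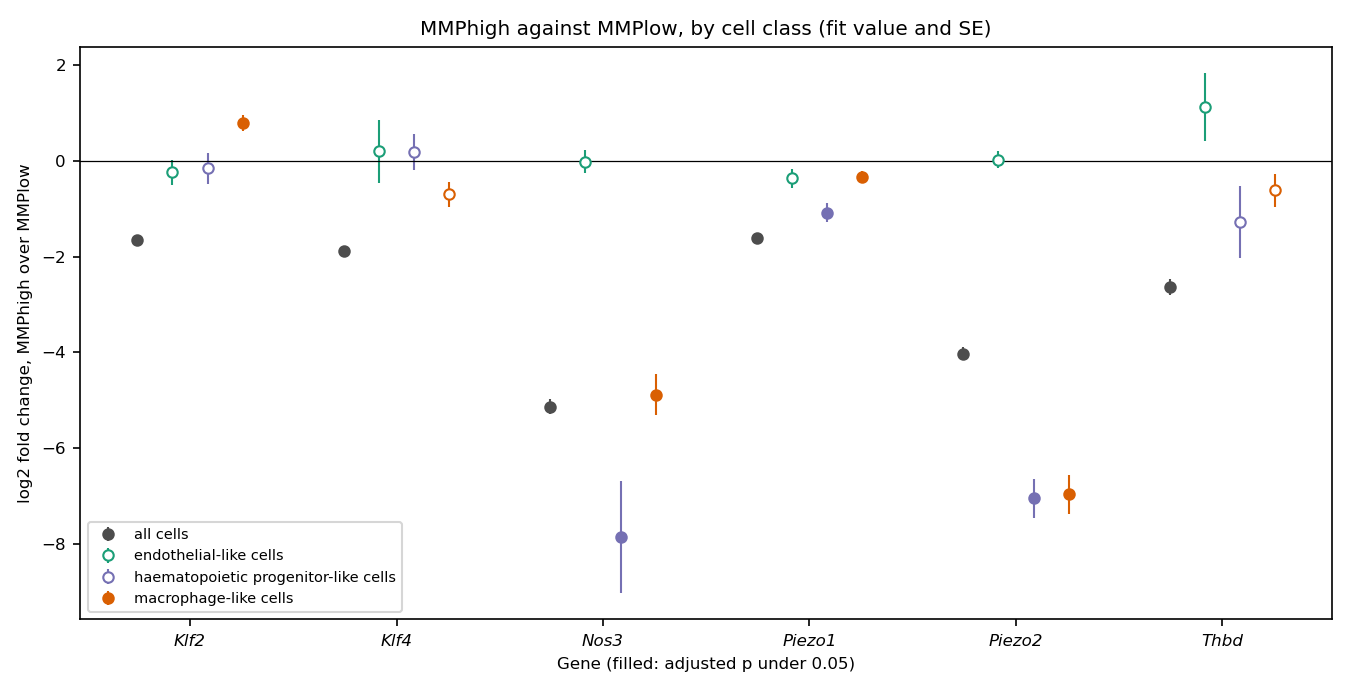
Log2 fold change of each gene, MMPhigh over MMPlow (y axis), fitted by edgeR in 4 sets of cells (colours); bars are SE and filled points have an adjusted p under 0.05. All 6 genes are lower over all cells, none is called within endothelial-like cells, and Klf2 is the only filled point above 0, in macrophage-like cells; the Nos3 value in progenitor-like cells rests on 0 UMIs in MMPhigh and depends on the prior count.

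The gate's effect also differed between classes for some of the genes, by edgeR's interaction of class and gate. Progenitor-like and endothelial-like cells differed in it for 4 of 6 genes (Nos3, Piezo1, Piezo2 and Thbd), where 18.7% of genes were called. The MMPhigh endothelial-like sums behind this hold 15 cells each, and for Thbd they hold 0 UMIs in MMPhigh 1 and 17 in MMPhigh 2, 14 of them from 1 cell. Macrophage-like and endothelial-like cells differed for 3 (Klf2, Nos3 and Piezo2), where 8.98% were called, and macrophage-like and progenitor-like cells for 1 (Piezo1), where 17.5% were called. Endothelial markers had a median log2 fold between the gates of 0.29 in endothelial-like, -3.97 in progenitor-like and -5.04 in macrophage-like cells. Their part in these differences was not tested.

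Further genes of the pathway were compared between the gates within these blood classes. In macrophage-like cells, where 21.3% of all genes tested were higher, 21.6% lower and 42.9% called in either direction, 15 of 18 tested genes of the list induced by laminar flow or KLF2 and KLF4 were lower in MMPhigh, with a median log2 fold of -3.96 against 0.00213 over all genes. Gja4 went from 11.4 and 6.95 CPM to 0 in both MMPhigh libraries, Slco2a1 from 1.60 and 2.32 CPM to 0, and the caveolar gene Cav1 had a log2 fold of -7.11. With genes at 0 set to 3 counts the list's median was again -3.96. The 2 higher ones were Hmox1 (1.90), which breaks down haem, and the signalling inhibitor Smad7 (0.83). Of 10 tested genes lowered by laminar flow, 6 were lower, among them the peptide ligand gene Apln (-5.33), and the chemokine Ccl2 (1.48) and Icam1 (0.50) were higher. Of 29 flow sensing genes, 12 were lower, led by the VEGF receptors Flt4 (-5.53) and Kdr (-5.15), and 3 were higher, the purinergic channel P2rx4 (0.61), the lipid receptor S1pr1 (0.60) and Mef2a (0.43). In the nitric oxide list 5 of 12 were lower, led by the guanylate cyclase subunit Gucy1a1 (-3.48), and 2 were higher, among them Nosip (0.60). Of 8 coagulation genes, 4 were lower, led by Vwf (-4.48), and the nucleotidase Entpd1 was higher (0.61). In the KLF family 2 of 11 were higher, Klf6 (1.71) and Klf3 (0.52), and 4 were lower, led by the erythroid factor Klf1 (-2.40).

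In progenitor-like cells, where 18.5% of all genes tested were higher and 17.7% lower, the same lists gave 9 of 13 lower and 0 higher for laminar flow or KLF2 and KLF4 induced genes, and 3 of 4 lower for genes lowered by laminar flow. Cav1 stood at 16.7 and 12.6 CPM in MMPlow and at 0 in both MMPhigh libraries, and Gja4 had a log2 fold of -4.50. The median of the first list was -3.58, or -3.25 with genes at 0 set to 3 counts, against -0.0213 over all genes. Flow sensing genes were lower in 13 of 27 cases and higher in 1, Mef2c (0.50). Nitric oxide genes were lower in 5 of 11 cases and higher in 3, among them Hsp90aa1 (1.02) and Nosip (0.93). Coagulation genes were lower in 4 of 7 cases, and in the KLF family Klf6 was higher (1.70) and 4 of 9 were lower. Endothelial marker RNA, given above, moved in the same direction in both classes, and its part in these lists was not tested.

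Genes with the most similar pattern were found over 35 sums of 11 classes, each sum with at least 50 cells, as a description in which sums of 1 library share its depth. For Nos3 these were Ushbp1 (Pearson r = 0.978), the endothelial factor Sox7 (0.975) and C130074G19Rik (0.972). For Piezo2 they were Prex2 (0.965) and the basement membrane genes Nid1 (0.958) and Hspg2 (0.957). Klf2 was closest to the junction gene F11r (0.891), Ifitm3 (0.870) and Smagp (0.858), and Klf4 to Chn2 (0.859), Wwc2 (0.817) and Map3k3 (0.813), which encodes a kinase upstream of MEK5. The genes closest to Piezo1 included Icam2 (0.899) and Slc43a3 (0.894), and Thbd was closest to Zfp69 (0.882), Zfc3h1 (0.855) and Cav2 (0.853). Among the 6 genes, r was highest between Nos3 and Piezo2 (0.833) and lowest between Klf4 and Piezo1 (0.168), and between Klf2 and Klf4 it was 0.623. The sums come from both gates, and endothelial marker RNA outside endothelial-like cells was lower in MMPhigh. The MMPhigh endothelial-like sums had too few cells to be included. The part of this marker RNA in r was not tested.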

How the data were processed

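The deposited matrices hold whole-number UMI counts per gene and barcode, with no normalization by the authors, from 10x Genomics 3' v3 libraries per the labels. Cell Ranger 7.0.1 made them per the file headers, while the submitters' processing notes name Cell Ranger 2.1.1 and mm10. Whether intronic reads were counted is not given in the sources used here. Total depth was 51800709 to 120168395 UMIs per library. Cells with at least 2000 UMIs, 1000 genes and at most 25% mitochondrial UMIs were kept. Scrublet's automatic threshold marked 0 to 996 cells per library and was not used, so the highest 5% of scores in each library was removed instead. Cells were clustered with scanpy 1.11.5 (Leiden, resolution 1) without the 6 genes, immediate early, mitochondrial, ribosomal and oxidative phosphorylation genes, and clusters were named from fixed marker lists, giving 28 clusters of which 5 stay unnamed. The cut at 2000 UMIs means that no retained cell was too shallow for thinning. Counts were summed per library and class (at least 10 cells for the gates, 20 within MMPlow) and tested with edgeR 4.0.16 under R 4.3.3 (TMM, filterByExpr, robust quasi-likelihood F-test, two-sided, Benjamini-Hochberg over all genes tested, threshold 0.05). SE was taken as the absolute log2 fold divided by the root of its F statistic. An exact permutation test of 2 libraries against 2 could not go below p = 0.333. Intervals cover counting error only. All 6 genes are named in the comparisons of classes, subtypes and gates. From each list, up to 3 called genes per direction with the largest fold are named, and for each gene the 3 most correlated ones. Some genes that this rule names are not reported here. The members and lists were chosen with earlier results of these data known. The fit was also run on counts simulated from a pooled profile with few changed genes. That setting is simpler than these gates, so the run does not cover them. Alternatives were DESeq2 1.42.0, other normalization, filters, doublets kept, clustering resolutions, replicate blocks and leaving out each library.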

Additional observations from a re-analysis of the deposited data

Results flagged for a closer look

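The effect of the gate was compared between classes by edgeR's interaction of class and gate, with Benjamini-Hochberg adjustment over all genes, an alternative chosen after the data were seen. Each value is the log2 fold of MMPhigh over MMPlow in 1 class minus that in another, over 2 libraries a gate. Progenitor-like minus endothelial-like cells gave -7.25 (SE 0.49, adjusted p = 3.61e-47) for Piezo2, -2.80 (0.84, 0.0077) for Thbd and -0.86 (0.30, 0.0276) for Piezo1, where 18.7% of genes were called. Nos3 gave -10.2 (SE 1.58, adjusted p = 4.83e-09), a fitted value that depends on the prior count because MMPhigh progenitor-like cells held 0 Nos3 UMIs. Macrophage-like minus endothelial-like cells gave -7.00 (SE 0.45, adjusted p = 3.02e-06) for Piezo2, -4.97 (0.52, 8.88e-07) for Nos3 and 0.95 (0.29, 0.0485) for Klf2, where 8.98% of genes were called. For Piezo2, F was 241 here and 223 for progenitor-like minus endothelial-like cells. The adjusted p of 3.61e-47 thus depends on the degrees of freedom of its fit, and p-values of these fits are not ranked. Macrophage-like minus progenitor-like cells gave 0.69 (SE 0.19, adjusted p = 0.00649) for Piezo1, where 17.5% of genes were called. The endothelial-like sums of MMPhigh hold 15 cells each, and Thbd was at 0 in MMPhigh 1 and at 17 UMIs in MMPhigh 2, 14 of them from 1 cell. The median log2 fold of endothelial markers between the gates was 0.29 in endothelial-like, -3.97 in progenitor-like and -5.04 in macrophage-like cells. Their part in these values was not tested.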

How the results depend on the processing

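Counts of genes called, and of genes higher in endothelial-like than in progenitor-like and macrophage-like cells, were repeated under alternatives. Of these, 81 values lay within 1.5 times the reported count and 9 did not. Only the number of genes was compared, not which genes were called or their direction. Between arterial-like and venous-like cells, resolution 2 is among the 81. Klf2 and Piezo2 were called higher there, while Klf4 and Piezo1 were not called. Within endothelial-like cells, 0 to 1 of the 6 genes were called when a library was left out, the 1 being Thbd without MMPhigh 1. In macrophage-like cells 1 gene was called under the stricter cell filter and 2 in cluster 13 only. Between arterial-like and venous-like cells 1 gene was called with DESeq2, with no replicate block (Klf4 at -0.96) and with all 4 libraries. That last fit held no MMPhigh arterial-like or venous-like sum. Between progenitor-like and macrophage-like cells 3 were called without TMM and at resolution 2, and 0 with all 4 libraries. Of all genes tested, 42.9% were called between the gates in macrophage-like cells, against 13.5% under the stricter cell filter and 25.8% at resolution 2. Between arterial-like and venous-like cells the share went from 23.1% to 15.7% at resolution 2 and 12.4% with DESeq2. For endothelial-like against macrophage-like cells it went from 60.9% to 42.7% under the stricter cell filter and 31.7% with DESeq2. For endothelial-like against progenitor-like cells it went from 52.1% to 27% with DESeq2. For progenitor-like against macrophage-like cells it went from 29.1% to 14.1% with DESeq2 and 20.6% with all 4 libraries. Within endothelial-like cells 264 genes were called, against 620 with no filter on low counts and 411 with DESeq2. Sign changes came in 29 single values. In endothelial-like cells Nos3 moved to 0.042 (DESeq2), 0.00215 (no TMM), 0.0058 and 0.119 (looser and stricter cell filter), 0.0195 and 0.0197 (resolution 0.5 and 2), 0.0276 (without MMPlow 2) and 0.0994 (without MMPhigh 1). Piezo2 there moved to -0.00705 (no filter on low counts), -0.00156 (without MMPlow 1) and -0.113 (without MMPhigh 1). Without MMPhigh 2, Klf4 and Thbd there had fitted values of -12.1 and -11.2 against 0 UMIs. In progenitor-like cells Klf4 moved to -0.123 (no TMM), -0.0148 (without MMPhigh 1) and -1.91 (resolution 2), Klf2 to 0.0586 (without MMPlow 1) and 0.00392 (without MMPhigh 1), and Thbd to 0.0793 (resolution 2). In macrophage-like cells Klf4 moved to 1.68 (stricter cell filter) and Piezo1 to 0.0752 (cluster 13 only). Between arterial-like and venous-like cells Klf2 moved to 0.0655 (resolution 0.5), and at resolution 2 Klf2, Klf4, Piezo2 and Thbd stood at 0.58, 0.587, 0.557 and 0.503. Between progenitor-like and macrophage-like cells Klf4 and Thbd stood at -0.158 and -0.728 (resolution 2) and Piezo1 at -0.149 (all 4 libraries). With a library left out, values in endothelial-like cells ran up to 0.956 for Klf4 and 1.89 for Thbd, from -0.201 for Nos3 and up to 0.166 for Piezo2, and in progenitor-like cells from -0.426 for Klf2 and up to 0.537 for Klf4. The cause was not tested. Replicate numbers pair the gates by number only (correlation of deviations 0.118, 2 pairs). With the replicate block, Klf4 in macrophage-like cells was called at -0.65 (edgeR adjusted p = 0.0419). No progenitor-like class was named at resolution 0.5 or under the stricter filter, nor a venous-like class under the stricter filter, and the test among subclusters has no residual degrees of freedom with a library left out. The 15 endothelial-like cells in each MMPhigh library limit what can be seen there.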
